A study of Mus musculus with 12 samples.

Results

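Transcripts of the nuclear-encoded subunits of oxidative phosphorylation were described in the livers of mice that drank low-dose penicillin and of untreated mice. The members were taken by gene symbol: all genes starting with Nduf, Uqcr, Cox4 to Cox8 or Atp5, together with Sdha, Sdhb, Sdhc, Sdhd and Cyc1, that had a probeset (a set of short array probes read as 1 value) annotated to them alone. This gave 91 genes with 180 probesets, out of 18193 genes named in this way on the array. Each gene was represented by its brightest probeset, and 88 of the 91 genes reached the mean log2 intensity of 4.73 that was required for testing (11899 genes in all). The 88 comprised 33 subunits of complex I, 4 of complex II, 9 of complex III, 15 of complex IV and 17 of complex V, with 8 assembly factors of complex I (the Ndufaf genes) and the complex IV relatives Cox7a2l and Ndufa4l2, which were kept apart.

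Livers came from male C57BL/6 mice from Jackson Labs, with free access to food and water and 12-hour light and dark periods. Of these animals, 6 received no antibiotic and 6 drank water with penicillin at low dose after weaning, and all were killed after 7 weeks of the intervention. Total RNA of each liver was labelled with a 3' in vitro transcription kit and hybridised to 1 Affymetrix array, which gave 12 arrays. The labels give no genetic modification, no dose, no age in weeks and no cage or hybridisation batch, and the part of housing and batch in the differences was not tested.

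Oxidative phosphorylation passes electrons from NADH (through complex I) and succinate (through complex II) by way of coenzyme Q, complex III, cytochrome c and complex IV to oxygen, and the proton gradient built on the way drives ATP synthesis by complex V. Most subunits are encoded in the nucleus, made in the cytosol and imported, while a small core set is encoded by mitochondrial DNA, so the complexes are built from transcripts of both genomes. Hepatocytes are rich in mitochondria and spend the ATP on glucose, urea and lipid synthesis. The transcription factors NRF1, GABPA (the DNA-binding part of NRF-2), YY1 and the oestrogen-related receptor ESRRA are known regulators of these nuclear genes.

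Promoter sequences of the members are shown because letters matching the NRF1 and GABPA motifs were more frequent in them than in promoters at large. The windows ran from 250 bases before to 50 bases after each RefSeq start site (mouse build GRCm38.p6), 300 bases in all, and were found for 74 of the 91 members (79 windows, as 5 genes had over 1). Motifs were searched on both strands as fixed letters, and a site that reads the same on both strands was counted once. The NRF1 motif (GCGCA, any 1 base, then GCGC) lay in 18 of the 79 windows (22.8%), against 4.6% of all 32851 promoter windows and 9.42% of the windows of the genes tested. The GABPA motif CCGGAAG lay in 19 windows (24.1%), against 8.86% of all windows and 16.2% of those of the genes tested. The YY1 motif AAGATGGCG lay in 7 windows (8.86%, against 1.40% and 2.85%), and the ESRRA motif CAAGGTCA in 4 (5.06%, against 1.56% and 1.2%). Median GC content was 59% in the members' windows, 52.7% in all windows and 60.3% in those of the genes tested. These matches are descriptions of the letters and were not tested as binding sites.

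The promoters printed below end 1 base before the start site, are written in the direction of transcription, and were chosen so that each complex is represented, with Ndufb3 as a promoter without a match. The other printed promoters all hold a match, so they are not typical of the members. Any of the 4 motifs lay in 38 of the 79 member windows (48.1%). In complex IV any of them lay in 3 of 12 windows, and the NRF1 motif in 1, that of Cox6a1. Capitals mark the NRF1 and GABPA letters, and CTTCCGG is the GABPA motif read on the other strand. Ndufb3, the member with the smallest p-value, lies at chr1:58586257-58586396 (plus strand) and holds no match to either motif in this stretch. Sdha, the flavoprotein subunit of complex II, at chr13:74350241-74350380 (minus strand), holds 3 NRF1 matches. Sdhd, a membrane anchor of complex II, lies at chr9:50603850-50603989 (minus strand). Uqcr11, a small subunit of complex III, lies at chr10:80406822-80406961 (minus strand). Cox6a1, the widely expressed form of a complex IV subunit, lies at chr5:115348959-115349148 (minus strand). Atp5h, a stalk subunit of complex V, lies at chr11:115419920-115420079 (minus strand). Ndufaf4, an assembly factor of complex I, lies at chr4:24897943-24898082 (plus strand).
Ndufb3: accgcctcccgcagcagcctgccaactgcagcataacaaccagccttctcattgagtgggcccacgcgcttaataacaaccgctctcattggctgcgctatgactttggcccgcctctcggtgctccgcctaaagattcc
Sdha: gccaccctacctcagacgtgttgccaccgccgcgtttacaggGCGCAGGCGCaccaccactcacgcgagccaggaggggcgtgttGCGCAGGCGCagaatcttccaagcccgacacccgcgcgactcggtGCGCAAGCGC
Sdhd: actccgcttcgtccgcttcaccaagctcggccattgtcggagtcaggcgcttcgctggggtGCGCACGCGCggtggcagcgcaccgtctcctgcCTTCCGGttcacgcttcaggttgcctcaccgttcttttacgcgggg
Uqcr11: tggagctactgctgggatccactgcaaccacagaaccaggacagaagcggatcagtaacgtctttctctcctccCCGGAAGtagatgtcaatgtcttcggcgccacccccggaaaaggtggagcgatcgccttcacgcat
Cox6a1: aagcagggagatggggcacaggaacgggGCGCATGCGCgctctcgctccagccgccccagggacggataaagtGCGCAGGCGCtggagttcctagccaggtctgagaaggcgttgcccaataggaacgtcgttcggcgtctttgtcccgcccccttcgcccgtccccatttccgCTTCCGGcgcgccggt
Atp5h: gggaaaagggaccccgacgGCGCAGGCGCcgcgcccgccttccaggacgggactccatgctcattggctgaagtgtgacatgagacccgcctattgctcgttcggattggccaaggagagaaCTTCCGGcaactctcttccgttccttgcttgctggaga
Ndufaf4: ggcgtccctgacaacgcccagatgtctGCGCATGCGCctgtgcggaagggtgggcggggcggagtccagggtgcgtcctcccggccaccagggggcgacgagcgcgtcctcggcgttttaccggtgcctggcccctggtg

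The 12 arrays were much alike, with correlations between pairs from 0.980 to 0.997 over the probesets. The tissue label was borne out by hepatocyte markers: 8 of the 10 listed were named by a probeset, all 8 lay above the filter, and their summed intensity was 175015 to 181730 in controls and 170714 to 175684 in penicillin livers. Markers of other cell types above the filter gave lower sums. These sums cover different numbers of probesets, so they do not rank the cell types or show that each was present. The neutrophil markers above the filter (2 of 5 named, with Mpo, Elane and Ngp below it) summed to 101 to 614 in controls and 43.7 to 90.4 in penicillin livers, and the cholangiocyte markers (4 of 5, with Cftr below) to 182 to 215 and 117 to 180. In such bulk tissue, fewer cells of a type and less RNA per cell cannot be told apart. The arrays also differed in state: immediate early genes stood high in controls 1, 3 and 5, acute phase genes in control 6, and clock output genes in control 6 and penicillin 1, 5 and 6.

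Differences in array intensity for transcripts of the respiratory chain and ATP synthase were small between penicillin-treated and control livers. For most members the data bounded the difference in intensity within a 1.2-fold change. No member passed an adjusted p of 0.05 in limma (smallest adjusted p = 0.594), and no gene on the array did (percent called 0, smallest adjusted p = 0.265). At an unadjusted p under 0.05, 1 of the 88 members was higher in penicillin livers (Ndufb3) and 0 were lower, where 4.33% of all genes tested were higher and 3.66% lower (7.98% together). The 6 penicillin values lay wholly above or below the 6 control values for 0 members, against 0.412% of all genes. Values below are log2 intensities, with the mean ± SD of 6 arrays a group, and each difference is penicillin minus control on the log2 scale.

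**Figure D1:**
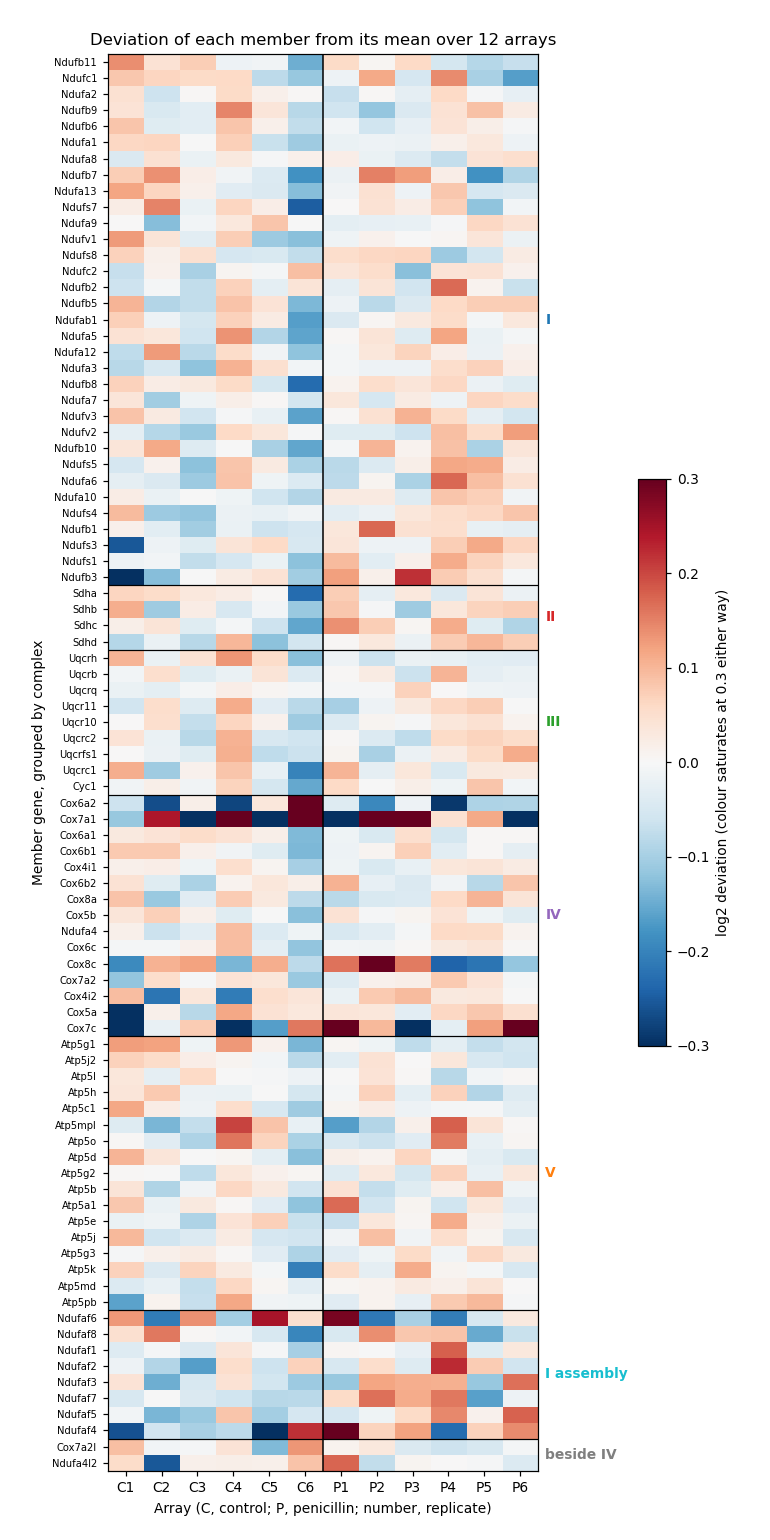
Deviation of each of the 88 tested members (rows, grouped by complex) from its own mean log2 intensity over the 12 arrays (columns; C, control; P, penicillin). Red is above and blue below the mean, with the colour saturating at 0.3. Column C6 (control 6) is mostly blue, and no block of rows separates the 6 control from the 6 penicillin columns.

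The intervals around these differences were narrow. For 82 of the 88 members (93.2%) the 95% interval of the difference lay within a 1.2-fold change in either direction, and for 86 it lay within 1.5-fold. Over all genes tested, 50.6% of intervals lay within 1.2-fold. Among genes with a mean log2 intensity of 10 or more 64.8% did, against 72 of 73 members (98.6%). These sets share only the floor of 10 and were not matched for intensity above it. The intervals bound array intensities, and how closely these follow transcript amounts was not tested. The members with an interval reaching beyond 1.2-fold were Ndufb3, Ndufaf4, Ndufaf6, Cox7c, Cox6a2 and Cox7a1. The members' values also scattered little between arrays: the median residual SD was 0.070 for members and 0.152 for all genes, and 0.067 against 0.111 at intensities of 10 or more.

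**Figure D2:**
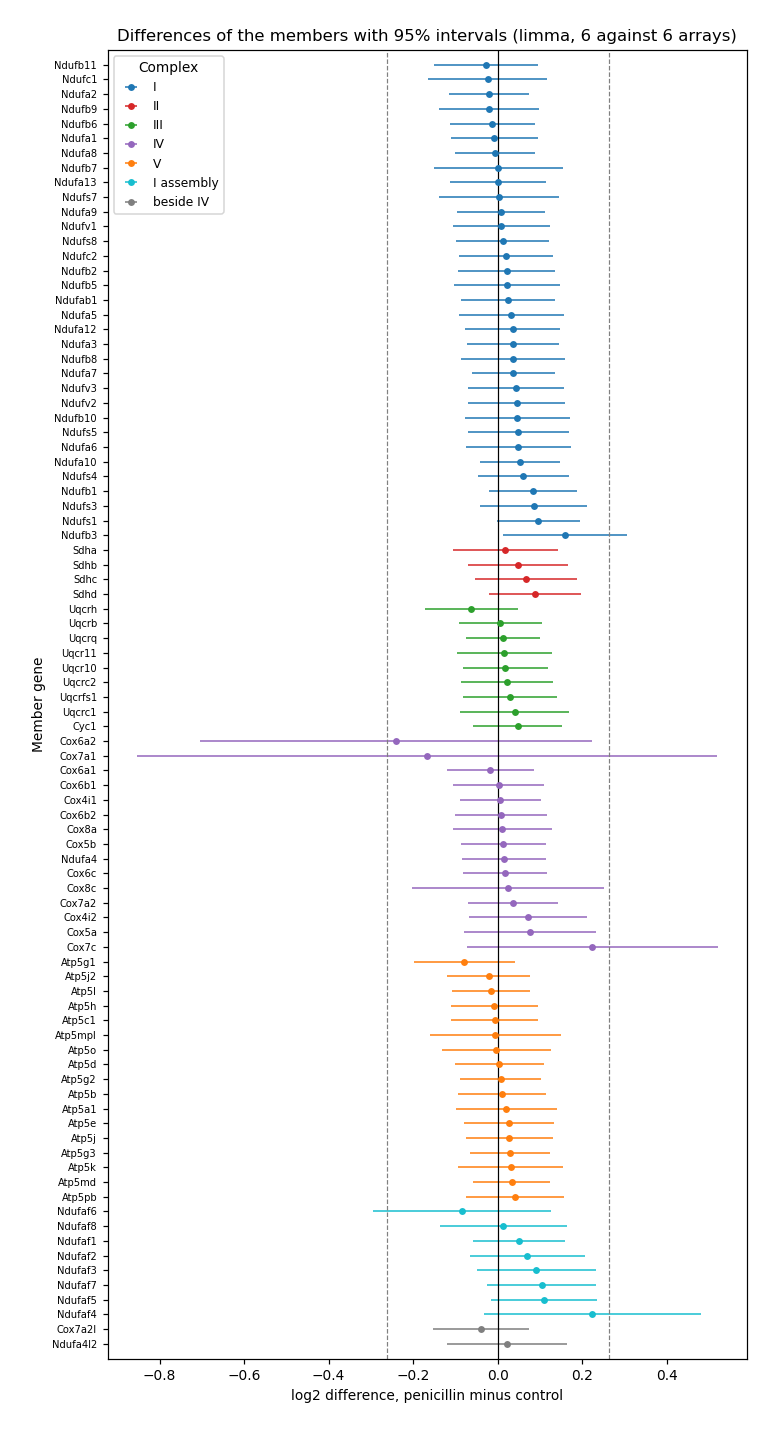
Log2 difference (penicillin minus control, horizontal axis) of each tested member with its 95% interval from limma, 6 against 6 arrays, coloured by complex. The dashed lines mark a 1.2-fold change either way, and 82 of the 88 intervals lie between them.

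**Figure D3:**
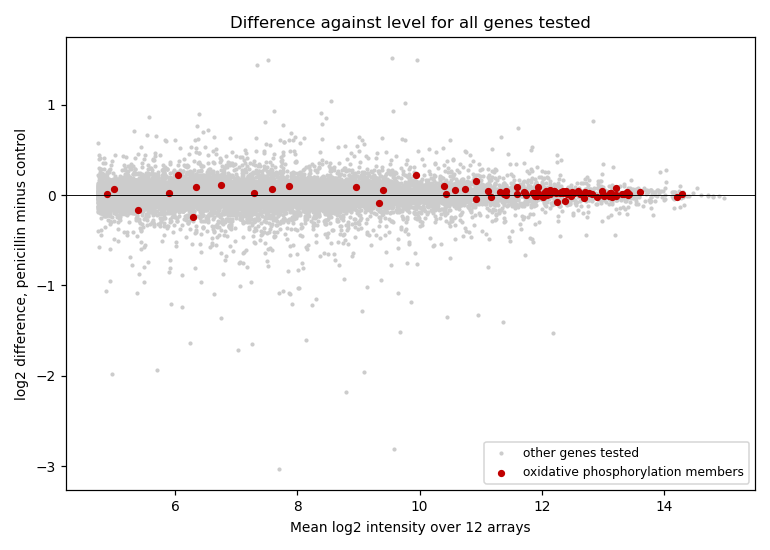
Log2 difference (penicillin minus control) against mean log2 intensity over 12 arrays for all 11899 genes tested; the 88 members are red and the others grey. Members lie between -0.24 and 0.22, and the 73 with an intensity of 10 or more lie between -0.08 and 0.16.

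The small differences leaned upward, and that lean depended on control 6. In the full set of arrays, 68 of 88 members had a positive difference (77.3%, against 52.8% of all genes tested), with a median of 0.021 for members and 0.0064 for all genes. Without control 6 the count was 47 of 88 (53.4%, against 53.7% of all genes) and the median 0.0067. Among the 73 members with intensities of 10 or more, the counts were 56 with control 6 and 35 without it. Without control 4 the count was 72. Without controls 1, 3 and 5, in which immediate early genes stood high, it was 67 of 88 (76.1%, against 46.9% of all genes). Without the arrays of high clock output (control 6 and penicillin 1, 5 and 6) it was 53 of 88 (60.2%, against 55.1% of all genes).

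Among genes with intensities of 10 or more, control 6 stood apart in these transcripts more than in all genes tested. It gave the lowest of the 12 values for 37 of the 73 members with intensities of 10 or more (50.7%), and for 18.0% of all such genes. In this array 66 of the 73 lay below their own mean over the arrays. The mean deviation of its members was -0.09 for complex I, -0.14 for complex II, -0.09 for complex III and -0.08 for complex V, and -0.09 for the 9 members of complex IV with intensities of 10 or more. Over all 15 tested members of complex IV the mean in control 6 was of the opposite sign, 0.09, the highest of the 12 arrays, with high values of the muscle forms Cox6a2 and Cox7a1. Acute phase genes (Saa1, Saa2, Saa3, Lcn2, Orm2, Hp, Hpx and Fgg) were a mean of 2.46 above their own mean in control 6 and between -0.61 and 0.37 in the other 11 arrays. The part of the acute phase in the members' low values was not tested. Control 4 and penicillin 4 had the highest means of the 73 members, 0.05 and 0.04.

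**Figure D4:**
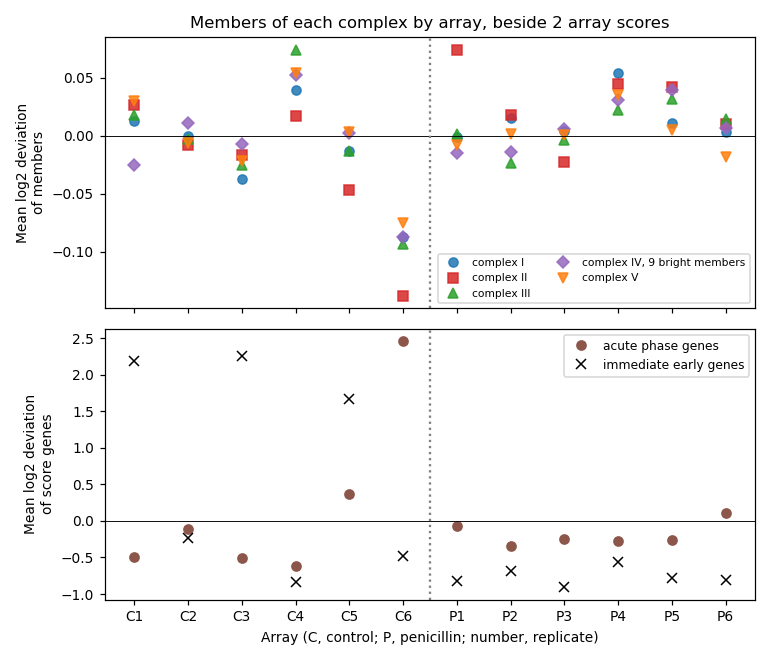
Top, mean log2 deviation of the tested members of each complex from their own means, by array (complex IV is drawn from its 9 members with intensities of 10 or more). Bottom, the same for 8 acute phase and 12 immediate early genes. Control 6 is low for each complex as drawn (-0.14 to -0.08; over all 15 complex IV members it is 0.09) and high for acute phase genes (2.46).

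Across the arrays, members varied together in several complexes. After removal of group means, the median correlation between pairs of the 73 members with intensities of 10 or more was 0.26 over 12 arrays, and that between pairs of all 1819 genes of such intensity was 0.02. The 76 genes of the mitochondrial ribosome had a median of 0.21, so the value is not particular to the members. It was 0.41 within complex III, 0.41 among the 9 members of complex IV, 0.22 within complex I and 0.23 within complex V, but 0.07 within complex II and -0.05 over all 15 members of complex IV, dim forms included. Without control 6 the value for the 73 members was 0.13, against 0.03 for all genes of such intensity. The pairs share their arrays and their normalisation, so these values are descriptions. The complex I members most like the mean of the others of their complex were Ndufa5 (0.91) and Ndufab1 (0.89), and the least like were Ndufa8 (-0.25) and Ndufc2 (-0.21).

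In complex I, which takes electrons from NADH and has the most subunits, 26 of 33 tested members had a positive difference, with a median of 0.02 and a range of -0.03 to 0.16. Without control 6, 18 of 33 were positive. Ndufb3, an accessory subunit of the membrane arm, ranged from 10.61 through a median of 10.87 to 10.96 in controls and from 10.91 through 10.98 to 11.14 in penicillin livers. The groups overlapped, with 4 of 6 penicillin arrays above the highest control and control 1 the lowest. The means were 10.84 ± 0.13 and 11.00 ± 0.08 (SD, n = 6 each), a difference of 0.16 (SE 0.07) with an unadjusted p of 0.036 and an adjusted p of 0.594 in limma, in 6 of 6 penicillin arrays above the control mean. Without control 1 the difference was 0.11 and no member was higher at an unadjusted p under 0.05.

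Ndufs1, the large iron-sulphur subunit of the electron-transfer arm, was singled out after its values were seen, because its groups came nearest to separating. Its controls lay at 10.28, 10.37 and 10.40 (lowest, median and highest) and its penicillin livers at 10.38, 10.46 and 10.52, so that 5 of 6 penicillin arrays exceeded every control. The difference was 0.10 (SE 0.05, limma unadjusted p = 0.055, adjusted p = 0.638), a 1.07-fold ratio. The other core subunits of the electron path had smaller differences: 0.09 for Ndufs3, 0.05 for Ndufv2, 0.01 for Ndufs8, 0.01 for Ndufv1, which carries the NADH site, and 0.0032 for Ndufs7. Their standard errors were 0.05 to 0.07, and none of these 5 reached an unadjusted p of 0.05. Among complex I subunits lower in penicillin livers, Ndufb11, a membrane arm subunit, had the smallest p. Its controls lay at 12.55, 12.71 and 12.83 and its penicillin livers at 12.61, 12.67 and 12.75, wholly inside the control range, with a difference of -0.03 (SE 0.06, limma adjusted p = 0.938).

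Ndufb4 was one of the members not tested, as its single-gene probeset had a mean of 3.41. A pair of brighter probesets shared by Ndufb4 and its copies Ndufb4b and Ndufb4c gave differences of 0.02 and 0.04. Probesets shared with a copy also stood for Ndufs6 (0.03) and Ndufa11 (0.04 for the brighter), and these cannot be assigned to 1 gene.

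The assembly factors of complex I, which build the complex and leave it, had a median absolute difference of 0.09 and a median residual SD of 0.10, against 0.02 and 0.07 for the subunits of complexes I to V. The sets differed in intensity, with 1 of 8 assembly factors and 71 of 78 subunits at 10 or more. All 15 members under 10, which include most of these factors, had 0.08 and 0.10. All genes tested had 0.07 and 0.15, so such values are not particular to assembly factors. Of the 8 assembly factors tested, 7 were positive, with a median of 0.08 and 0 at an unadjusted p under 0.05. Ndufaf4, singled out after its values were seen, ran from 9.54 through 9.85 to 10.16 in controls and from 9.71 through 10.04 to 10.44 in penicillin livers, so the groups overlapped over most of their range. Its difference was 0.22 (SE 0.12, limma adjusted p = 0.679) and 0.15 without penicillin 1, which was the highest array. Without control 6 it was 0.29 with an unadjusted p under 0.05, and without controls 1, 3 and 5 it was 0.08. Ndufaf5, also chosen after its values were seen, differed by 0.11 (SE 0.06, limma adjusted p = 0.679), with 2 penicillin arrays above the highest control. Ndufaf6 was the member with a negative difference, -0.08 (SE 0.10), and it turned to 0.05 without controls 1, 3 and 5.

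Complex II oxidises succinate and links the chain to the citrate cycle. All 4 of its subunits had positive differences, in the order Sdha 0.02, Sdhb 0.05, Sdhc 0.07 and Sdhd 0.09, each with a standard error of 0.05 to 0.06, and without control 6 there were 3 of 4. Neighbours in this order did not differ beyond those errors. Sdhd lay at 11.47, 11.52 and 11.69 in controls (lowest, median and highest) and at 11.57, 11.64 and 11.69 in penicillin livers. The penicillin values sat inside the control range, whose top was control 4, and 6 of 6 exceeded the control mean of 11.54 ± 0.08 (penicillin 11.63 ± 0.05; SD, n = 6 each; limma adjusted p = 0.706). Without controls 1, 3 and 5 the difference was 0.04. Sdha, whose promoter holds 3 NRF1 matches, had its lowest value, 12.12, in control 6, and the other 11 arrays lay between 12.31 and 12.42.

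Complex III passes electrons from coenzyme Q to cytochrome c. Of its 9 members 8 had a positive difference, with a range of -0.06 to 0.05, and 9 of 9 intervals lay within 1.2-fold. Cyc1, the cytochrome c1 subunit that hands electrons on, lay at 12.25, 12.39 and 12.47 in controls and at 12.39, 12.41 and 12.49 in penicillin livers. All but 1 of the penicillin arrays lay under the highest control, control 6 was the lowest array, and the difference was 0.05 (SE 0.05, limma adjusted p = 0.868), or 0.02 without control 6. Uqcrh, the hinge protein that helps cytochrome c dock, was the member with a negative difference: 12.25, 12.43 and 12.51 in controls and 12.31, 12.35 and 12.36 in penicillin livers. Its penicillin arrays were tightly grouped inside the wider control range (SD 0.02 against 0.09, n = 6 each), and the difference was -0.06 (SE 0.05, limma adjusted p = 0.812), or -0.09 without control 6. The core proteins Uqcrc1 and Uqcrc2 and the Rieske iron-sulphur protein Uqcrfs1 differed by 0.04, 0.02 and 0.03, each within its standard error of 0.05 to 0.06.

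In complex IV, cytochrome c oxidase, 12 of 15 members had a positive difference, 7 of 15 without control 6. The complex has subunits with a widely expressed form and a form restricted to certain tissues, and the wide forms had similar means in both groups. Cox4i1 was 13.40 ± 0.05 in controls and 13.41 ± 0.03 in penicillin livers (SD, n = 6 each). The difference was 0.01 for Cox4i1, -0.02 for Cox6a1, 0.0026 for Cox6b1, 0.04 for Cox7a2, 0.01 for Cox8a and 0.01 for Ndufa4, a subunit of complex IV despite its symbol, with standard errors of 0.04 to 0.06. Cox6a1, whose promoter holds 2 NRF1 matches, ran from 14.24 to 14.28 in controls 1 to 5 and was 14.09 in control 6, while the penicillin livers lay between 14.17 and 14.27. Signs among these forms are not settled: Cox6a1 was 0.0080 without controls 1, 3 and 5, and Cox4i1, Cox6b1 and Cox8a turned negative under some of the alternatives tried.

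The tested tissue-restricted forms had mean intensities from 4.88 for Cox6b2, just above the filter of 4.73, to 7.29 for Cox8c. Cox6a2, the heart and skeletal muscle form, lay at 6.02, 6.27 and 7.56 in controls (lowest, median and highest) and at 6.00, 6.20 and 6.28 in penicillin livers. The high value was control 6 alone, as the other 5 controls ended at 6.33. The difference was -0.24 (SE 0.21, limma adjusted p = 0.835) and -0.0097 without control 6. Cox8b, another muscle form and below the filter with a mean of 4.40, was also highest in control 6 (5.31, against 3.89 to 4.66 in the other 11 arrays). Cox7a1, also a muscle form, varied more than any other member, from 4.45 to 6.46 in controls and from 4.60 to 5.71 in penicillin livers, with a residual SD of 0.62 and control 4 the highest. Its difference was -0.17 (SE 0.32, limma adjusted p = 0.932). It was 0.03 without control 4, and -0.76 with an unadjusted p under 0.05 without controls 1, 3 and 5.

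Markers of skeletal muscle were read beside these forms. Of 8 markers, 3 lay above the filter and Acta1, Myh1, Myh4, Tnnt3 and Tnni2 did not, and the summed intensity of those above it was 154 to 211 in controls and 156 to 175 in penicillin livers. Ckm, the muscle creatine kinase, was 6.84 in control 6 and 5.72 to 6.16 in the other arrays, while Atp2a1, the muscle calcium pump, was 5.88 and Mylpf, a fast muscle myosin light chain, was 5.23 there, both within the range of the others (5.68 to 6.08 and 5.22 to 5.84). Slc25a4, the adenine nucleotide carrier form of heart and muscle, was 8.66 in control 6 and 6.93 to 7.72 elsewhere. The part of other cells in these values was not tested.

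Cox4i2, the lung form, differed by 0.07 (SE 0.07), with controls at 4.78, 5.03 and 5.09 and penicillin livers at 4.98, 5.03 and 5.09. The testis forms Cox6b2 and Cox8c differed by 0.01 and 0.02, each by less than its standard error of 0.05 and 0.10, and Cox7b2, a testis form with a mean of 3.13, was not tested. Ndufa4l2, a hypoxia-responsive relative of Ndufa4, differed by 0.02 (SE 0.07). Cox7a2l, a factor described for supercomplexes of complexes III and IV, differed by -0.04 (SE 0.05), and its function in these mice was not tested. None of these passed a threshold over all arrays. Cox4i2 was 0.17 with an unadjusted p under 0.05 without controls 1, 3 and 5, and the signs of Cox6b2, Cox8c and Ndufa4l2 turned when single arrays were left out.

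**Figure D5:**
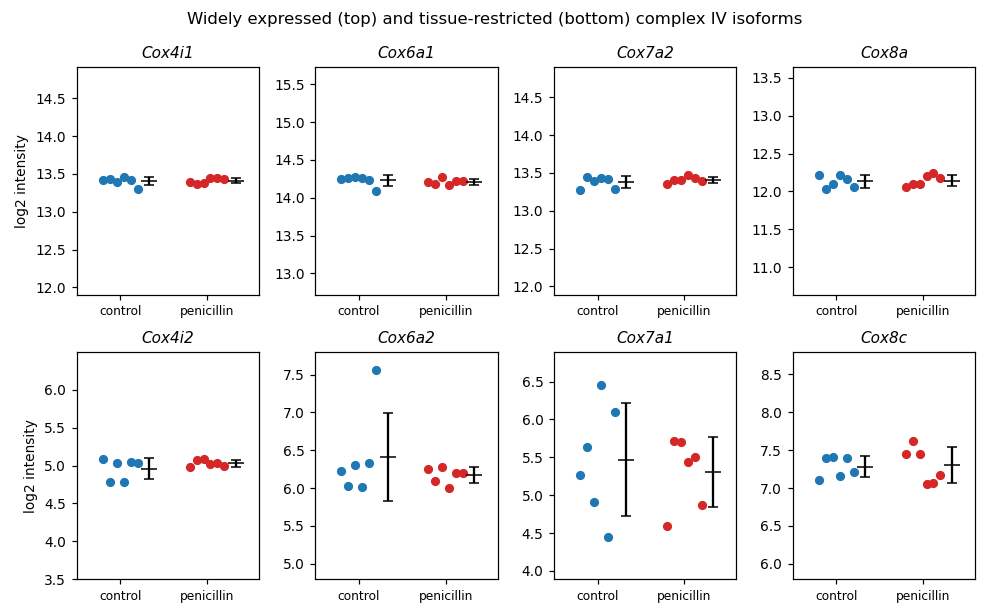
Log2 intensity of widely expressed (top row) and tissue-restricted (bottom row) complex IV subunit forms in each control (blue) and penicillin (red) array; bars are mean ± SD, n = 6 a group. Each panel has its own axis of equal length. The widely expressed forms have similar means in both groups, the value of 7.56 for Cox6a2 is control 6, and Cox7a1 spreads from 4.45 to 6.46.

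Cox7c and Cox5a had the highest differences of complex IV. Cox7c, a small structural subunit, was read by a probeset of low signal (mean 6.06), at 5.69, 5.96 and 6.21 in controls and 5.70, 6.17 and 6.53 in penicillin livers. The groups overlapped over most of the range, and the difference was 0.22 (SE 0.14, limma adjusted p = 0.732), or 0.07 without the arrays of high clock output. Cox5a, chosen after its values were seen, lay between 13.13 and 13.33 in 5 controls, at 12.86 in control 1, and between 13.18 and 13.29 in penicillin livers. Its difference of 0.08 (SE 0.07) was 0.01 without control 1.

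In complex V, the ATP synthase, 10 of 17 members had a positive difference, the median was 0.0068, and 17 of 17 intervals lay within 1.2-fold. Without control 6, 6 of 17 were positive. Atp5a1 and Atp5b, the subunits of the catalytic head, differed by 0.02 and 0.01, and Atp5c1, a subunit of the central stalk, by -0.01. The standard errors of these 3 were 0.05 to 0.06. Subunit c, which forms the rotating ring, is made from 3 genes that encode the same mature protein. Of these Atp5g1 lay at 12.11, 12.31 and 12.37 in controls and 12.17, 12.20 and 12.25 in penicillin livers, all 6 penicillin arrays below the control mean but inside the control range. Its difference was -0.08 (SE 0.06, limma adjusted p = 0.765), and without control 6, its lowest array, it was -0.11 with an unadjusted p under 0.05. Atp5g2 differed by 0.01 and Atp5g3 by 0.03, with standard errors of 0.04. Atp5md, a small subunit of the membrane part, had the smallest p among positive members of the complex (0.03, SE 0.04, limma adjusted p = 0.898).

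Several members had more than 1 probeset, which allowed the differences to be read again on other probes of the same transcripts. Of 162 passing member probesets, 116 had a positive difference, and their range was -0.24 to 0.26. Among 47 members with over 1 passing probeset, 29 had all of them on 1 side of 0, the median range within a gene was 0.03, and 40 kept all probesets within 0.1 of each other.

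Spread between animals was read as well. The median SD of members was 0.08 in controls and 0.06 in penicillin livers, and 57 of 88 members (64.8%) had the smaller SD in penicillin livers, against 55.3% of all genes. Without control 6 the median SD of members in controls was 0.065, against 0.057 in penicillin livers, and the count was 50 of 88. The share of all genes without control 6 was not computed, so this count is not read as a result about the members.

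Around the complexes, genes that build and serve them were read from the same fit, and 0 passed an adjusted p of 0.05 in limma in any of the lists. The 13 subunits encoded by mitochondrial DNA were named by 0 single-gene probesets under the symbols searched and were not analysed here. Assembly factors outside the naming rule had 32 of 42 positive differences (median 0.06), with 5 higher (11.9%) and 0 lower at an unadjusted p under 0.05. Over all genes tested, 52.8% were positive, 4.33% higher and 3.66% lower. Without controls 1, 3 and 5, 2 of the 42 were higher (Dmac1 and Cox18) and 0 lower, where 220 of all 11899 genes were higher. Without control 6, 7 were higher, and without the arrays of high clock output 9 were, where 726 and 572 of all genes were higher. Over all arrays the assembly factor of this list with the smallest p was Dmac1, a factor for the distal membrane arm of complex I. Dmac1 lay at 10.05, 10.12 and 10.21 in controls and 10.23, 10.29 and 10.43 in penicillin livers. The groups did not overlap, and the difference was 0.18 (SE 0.05, limma unadjusted p = 0.0028, adjusted p = 0.434). Cox18, which inserts a complex IV core subunit into the inner membrane and was chosen after its values were seen, also had groups that just separated (medians 8.41 and 8.62) and a difference of 0.23 (SE 0.07, limma adjusted p = 0.519). Bcs1l, which inserts the Rieske protein into complex III, had the smallest p of the negative ones (-0.03, SE 0.06).

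Among 19 genes for mobile carriers and coenzyme Q synthesis, 16 had a positive difference (84.2%, median 0.08), with 3 higher (15.8%, against 4.33% of all genes) and 0 lower at an unadjusted p under 0.05. Without controls 1, 3 and 5, 0 of them were higher at that p, but only 220 of all 11899 genes were. In that set of arrays 17 of the 19 were positive, with a median of 0.07. Coq2, which joins the ring and tail of coenzyme Q, had the smallest p (0.14, SE 0.06, limma adjusted p = 0.588), with controls at 8.88, 8.95 and 9.16 and penicillin livers at 9.07, 9.12 and 9.18. Coq6, a ring hydroxylase of the same pathway chosen after its values were seen, ran from 7.18 to 7.24 in controls and from 7.25 to 7.32 in penicillin livers, without overlap, with a difference of 0.10 (SE 0.04, limma adjusted p = 0.594). Cytochrome c itself (Cycs) differed by 0.04 (SE 0.05) and Hccs, which attaches its haem, by -0.05 (SE 0.06).

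Of 11 tested genes for ATP, phosphate and proton transport, 9 had a positive difference (81.8%, against 52.8% of all genes). At an unadjusted p under 0.05, 1 was higher (9.09%, against 4.33% of all genes). This was Slc25a42, a coenzyme A carrier (0.29, SE 0.11, limma adjusted p = 0.570). Without controls 1, 3 and 5, 5 of the 11 were positive (45.5%, near the 46.9% of all genes). The citrate cycle list had 15 of 20 positive differences (median 0.06) with 1 higher (5%, against 4.33% of all genes), Dlst, a subunit of the 2-oxoglutarate dehydrogenase complex (0.12, SE 0.05), and its partner Ogdh at -0.08 (SE 0.06). The mitochondrial ribosome, which translates the subunits encoded by mitochondrial DNA, had 63 of 76 positive differences (median 0.05), 61 of 76 without control 6, with 3 higher (3.95%, near the 4.33% of all genes) and 0 lower at an unadjusted p under 0.05. Mrps18c had the smallest p of these (0.13, SE 0.05, limma adjusted p = 0.570), and Mrps6 had the smallest of the negative ones (-0.14, SE 0.08).

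Regulators of mitochondrial biogenesis went both ways, with 12 of 25 positive (48%, against 52.8% of all genes). At an unadjusted p under 0.05, 3 were higher and 1 lower, against 4.33% and 3.66% of all genes. Without controls 1, 3 and 5 there were 0 of either, but only 220 and 268 of all 11899 genes were higher and lower. Without the arrays of high clock output 0 were higher and 1 lower (Sirt1), against 572 and 291 of all genes. Polg2, the accessory subunit of the mitochondrial DNA polymerase, lay at 7.32, 7.52 and 7.79 in controls and 7.63, 7.94 and 8.25 in penicillin livers. With 4 penicillin arrays above every control, its difference was 0.38 (SE 0.11, limma adjusted p = 0.511), or 0.24 without the arrays of high clock output. Sirt1, a deacetylase that acts on PGC-1 alpha, lay at 7.26, 7.40 and 7.73 in controls and 6.76, 7.17 and 7.42 in penicillin livers, a difference of -0.30 (SE 0.12, limma adjusted p = 0.587). Over all arrays the co-activator Ppargc1a differed by -0.30 (SE 0.19), or -0.0089 without controls 1, 3 and 5. The co-activator Ppargc1b, chosen after its values were seen, differed by 0.61 (SE 0.24, limma adjusted p = 0.585). It was 8.77, 8.77 and 8.43 in penicillin 1, 5 and 6, where clock output genes stood high. The other penicillin arrays lay between 7.64 and 7.98, and the controls between 6.81 and 7.97. Control 6, where clock output genes also stood high, was the control at 7.97, close to control 1 at 7.90. The part of clock output and the difference between these 2 genes were not tested. The factors Esrra (0.13, SE 0.10), Ppara (0.13, SE 0.21), Tfam (0.10, SE 0.07), Gabpa (0.08, SE 0.09) and Nrf1 (-0.15, SE 0.10) did not reach an unadjusted p of 0.05. Esrra was 0.20 with an unadjusted p under 0.05 without control 6, whereas Esrra, Tfam and Gabpa had negative differences without controls 1, 3 and 5, and Ppara without the arrays of high clock output.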

How the data were processed

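Liver RNA of 12 mice was measured on 12 Affymetrix arrays. The deposited values are probeset intensities on a linear scale, which the authors had computed with RMA, going by the submitters' processing notes (version not given in the sources used here), and log2 was taken of them with no further normalisation. Of 45101 probesets, 64 were array controls, 34945 were annotated to 1 gene and 932 to several, from the platform annotation. The brightest probeset stood for each gene, and 11899 genes with a mean log2 intensity of at least 4.73, the median over probesets, were tested. Penicillin was compared with control in limma 3.58.1 (R 4.3.3) with empirical Bayes variances, two-sided, adjusted by Benjamini-Hochberg over all genes tested. The number of arrays limits the precision. The members and lists were chosen with earlier results of these data known. Genes given by array were, in each complex, the member with the smallest p in each direction, members whose groups did not overlap or with an unadjusted p under 0.01, the tissue forms of complex IV with their widely expressed counterparts, and from each list the gene with the smallest p in each direction plus Ppargc1a, Ppara, Esrra, Tfam, Nrf1, Gabpa and Cycs. The script was tested on simulated data. Alternatives covered filters, scaling, variance models, probeset choice, pseudocount, a replicate block and omission of arrays. Promoters are from RefSeq (GRCm38.p6).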

Additional observations from a re-analysis of the deposited data

Results flagged for a closer look

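Of 110 groups of 6 values examined for a single array far from the others, 13 held one. The rule marks about 5% of groups by chance if the groups are independent and fixed beforehand. These groups include genes picked by their p-values and array means that share genes. The 13 can therefore not be compared with that 5%. In control 6, Cox6a2 (7.56) and Slc25a4 (8.66) stood far above, and Cox6a1 (14.09) far below, the other controls. Ndufa4l2 was lowest in control 2 (5.65) and highest in penicillin 1 (6.07). Uqcrh was lowest in penicillin 2 (12.31) and Mrps18c in penicillin 1 (10.72), and Dmac1 was highest in penicillin 3 (10.43) and Tfam in penicillin 5 (9.79). Among array means of deviations, penicillin 4 was the highest penicillin array for all members (0.0334), for complex I (0.0539) and for members with intensities of 10 or more (0.0412), and penicillin 5 the lowest for the complex I assembly factors (-0.0441).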

How the results depend on the processing

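Results were recomputed under 26 settings beside the one reported, 12 of which left out 1 array; 3 of the choices were made after seeing the data. No member and no named gene passed an adjusted p of 0.05 in limma under any of them. The number of members higher at an unadjusted p under 0.05 was 2 with a stricter filter (75th percentile), 0 with array weights, 2 with an intensity trend in the variance prior, 4 with no variance prior, 2 with the mean of all passing probesets and 2 with a pseudocount of 16. In the reported setting it was 1 of 88 (1.14%), against 4.33% of all genes. Shares over all genes under the other settings are not given here, and these small counts are not read as results about the members. The number lower was 1 without controls 1, 3 and 5, where 268 of all 11899 genes were lower. Leaving out 1 array gave 0 to 3 higher, 0 to 1 lower, 47 to 72 positive differences (lowest without control 6, highest without control 4) and a median of 0.0067 to 0.034. With the replicate block, 0 members passed an adjusted p of 0.05, 1 was higher and 68 were positive; same-numbered arrays correlated between -0.26 and 0.39 and 5 of 12 correlated best with their own number, so the numbers were not taken as pairs. Of 47 named genes, 30 kept their sign under the settings run and 17 turned; the cause was not tested. With array weights Cox8c was -0.021 and Cox6b1 -0.0056; with the mean of probesets Cox8c was -0.060 and Cox8a -0.015. Without controls 1, 3 and 5, Ndufb11 was 0.026, Cox6a1 0.0080, Esrra -0.0097, Tfam -0.0091, Gabpa -0.039, Ndufaf6 0.046 and Cox5a -0.017. Without the arrays of high clock output, Cyc1 was -0.00023, Cox6b2 -0.017, Cox7a1 0.27, Cox4i1 -0.027, Cox6b1 -0.0097, Cox8a -0.018, Bcs1l 0.034 and Ppara -0.053. Leaving out 1 array, the range was -0.011 to 0.026 for Cox6b2, -0.37 to 0.030 for Cox7a1, -0.039 to 0.075 for Cox8c, -0.027 to 0.041 for Ndufa4l2, -0.013 to 0.017 for Cox4i1, -0.024 to 0.019 for Cox6b1, -0.0098 to 0.029 for Cox8a and -0.054 to 0.0021 for Bcs1l. No background call was used, so intensities near the filter, as for Cox6b2 and Cox4i2, cannot be told from background.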
